A study of Mus musculus with 6 samples.

Results

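Genes of the CD40 costimulatory pathway were followed in mouse oral tumours: the receptor gene Cd40, its ligand gene Cd40lg, the adaptor genes Traf2, Traf3 and Traf6, the B7 ligand genes Cd80, Cd86 and Icosl, and the maturation marker gene Cd83. They were taken by symbol from the deposited expression table, and all 9 of 9 named symbols were found among its 770 genes. The tumours were oral squamous cell carcinomas of mice given 4NQO, a chemical carcinogen, and both groups carry that exposure. The vehicle group has 3 samples and the group given an agonistic antibody to CD40, called anti-CD40 below, has 3 samples. RNA came from formalin-fixed, paraffin-embedded primary tumours, which hold carcinoma, stroma and immune cells together. The sources used here give no strain beyond the carcinogen model, and no age, antibody clone, dose or sampling time. Whether each sample is a separate animal is not in the labels. The p-values therefore measure only the spread among 6 samples, and part of that spread may be technical.

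CD40 belongs to the tumour necrosis factor receptors and sits on B cells, dendritic cells and macrophages. Its ligand, CD154, is shown mainly by activated helper T cells. Ligation recruits TRAF adaptor proteins to the receptor's tail: TRAF2 and TRAF6 pass the signal to NF-κB and stress kinases, whereas TRAF3 in unstimulated cells keeps the kinase NIK low and so restrains the non-canonical NF-κB route. Antigen-presenting cells licensed in this way display more CD80 and CD86, the ligands of CD28 and CTLA4 on T cells. ICOS ligand is the related partner of ICOS, and CD83 marks mature dendritic cells and activated B cells.

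Values are log2 normalized counts as deposited. The whole counts behind them summed to between 333400 and 578598 per library over the 770 genes. Above background means a count over a limit of 24.7 to 26.6, which is each library's negative control mean (8 controls) plus 2 SD, and 523 genes passed it everywhere. Of the labelled tissue's epithelial markers, Cdh1, Itga6, Itgb4 and Epcam were above background in every library. Libraries differed in immune content within both groups. The means of 7 neutrophil and immature granulocyte markers were 7.26, 9.71 and 6.79 in vehicle 1, 2 and 3 and 9.64, 9.19 and 7.06 in anti-CD40 1, 2 and 3. Only 2 of the 7 were above background in every library. Their summed levels were 16.8, 17.2 and 14.8 log2 in vehicle and 16.5, 17.2 and 14.8 in anti-CD40. Vehicle 1 was thus high in the sum but not in the mean.

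None of the 9 genes differed between anti-CD40 and vehicle tumours beyond the spread of the samples. With limma and Benjamini-Hochberg adjustment over all 770 genes, 0 of 9 members passed an adjusted p of 0.05, against 0% of all genes. At an unadjusted p under 0.05 the count was 0 of 9, against 3.25% of all genes (25 genes). Leaving out vehicle 2 gave 47 such genes, vehicle 3 gave 43, anti-CD40 1 gave 13 and anti-CD40 2 gave 49. With limma-voom on the recovered counts, 0 genes passed the adjusted threshold and 31 had an unadjusted p under 0.05. For 0 of 9 members did the groups fail to overlap, against 10.3% of all genes. The receptor and the 4 genes of its B7 and maturation readout had lower means in anti-CD40 tumours, and the ligand and the 3 adaptors had higher ones. That is 5 of 9 lower, against 45.5% of all genes, and it was 3 of 9 without anti-CD40 3 and 7 of 9 without vehicle 2. The median difference, anti-CD40 minus vehicle, was −0.17 over the members and 0.038 over all genes. The median size of a difference regardless of sign was 0.22 in both the members and all genes. Exact two-sided permutation tests of the member differences gave p from 0.4 to 0.9, where 0.1 is the smallest p that 3 against 3 allows. Within vehicle the SD was larger than within anti-CD40 for 6 of 9 members, against 59.4% of all genes.

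**Figure D1:**
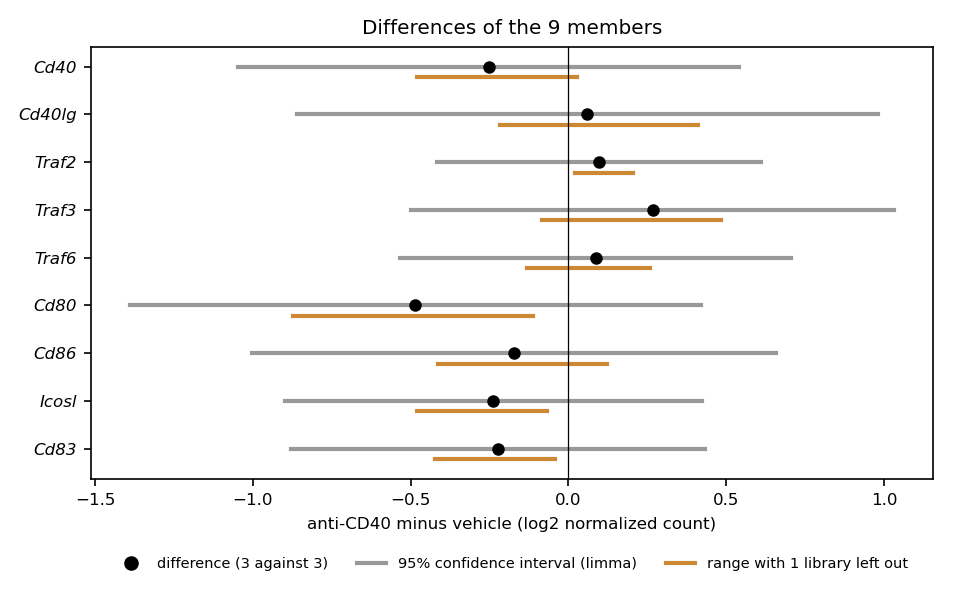
Difference in log2 normalized count (x axis, anti-CD40 minus vehicle, 3 samples against 3) for each of the 9 genes (y axis). Black points are the differences, grey lines the 95% confidence intervals from limma, and orange lines the range of the difference with 1 library left out; every grey line crosses 0, and that of Traf2 is the shortest at −0.42 to 0.61.

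The intervals give the range of ratios compatible with these 6 libraries. For Traf2, which had the narrowest interval, the ratio of anti-CD40 to vehicle was 1.07, with a 95% confidence interval of 0.75 to 1.53. For Cd40 the ratio was 0.84 (0.48 to 1.45), for Cd86 0.89 (0.50 to 1.58), for Cd83 0.86 (0.54 to 1.35) and for Icosl 0.85 (0.54 to 1.34). For Cd80 it was 0.71 (0.38 to 1.34), for Traf6 1.06 (0.69 to 1.63), for Traf3 1.20 (0.71 to 2.05) and for Cd40lg 1.04 (0.55 to 1.97). A ratio of 2 lay outside the interval for every member but Traf3, with Cd40lg close to it. For Cd40lg this is no firm bound, since the gene exceeded background in only 2 libraries. Its upper limit in log2 was 0.98, and 1.06, past a ratio of 2, with an offset of 1 in place of the deposited one. A ratio of 0.5 lay inside the interval for Cd40, Cd80 and Cd86. These ratios are of normalized counts with the small offset that the deposited logarithm holds, which understates ratios of the lowest genes.

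Cd40, the gene of the antibody's target, was 7.36, 7.05 and 6.53 in vehicle 1, 2 and 3 and 6.92, 7.09 and 6.16 in anti-CD40 1, 2 and 3. Vehicle 1 was highest, anti-CD40 3 was lowest, and anti-CD40 1 and 2 lay between the highest and the lowest vehicle values. The counts behind these values were 87, 39 and 51 in vehicle and 51, 54 and 24 in anti-CD40. The 24 counts of anti-CD40 3 have an exact 95% Poisson interval of 15.4 to 35.7 for counting error alone, and this was the library in which Cd40 did not exceed background. Group means were 6.98 ± 0.42 (SD, n = 3) and 6.73 ± 0.49 (SD, n = 3). The difference of −0.25 (SE 0.34) had a limma adjusted p of 0.974 and was 0.028 without anti-CD40 3. In bulk RNA, fewer cells of a type and less RNA per cell cannot be told apart, which holds for every gene here.

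Cd40lg, the ligand gene of activated T cells, lay at the edge of detection. It was 5.94, 5.66 and 5.0 in vehicle and 6.15, 5.74 and 4.89 in anti-CD40 libraries, from 31, 14 and 16 counts and from 29, 20 and 9 counts. Only vehicle 1 and anti-CD40 1 exceeded background, so the other 4 values have no order that these counts can support. The difference of 0.060 (SE 0.39, limma adjusted p = 0.988) turned to −0.21 when vehicle 3 was left out, to −0.22 when anti-CD40 1 was, and to −0.013 when anti-CD40 2 was. T cell markers were low as well: of 10 measured, 5 were above background in all 6 libraries, and Cd8b1 and Cd2 were at or below it in every one.

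**Figure D2:**
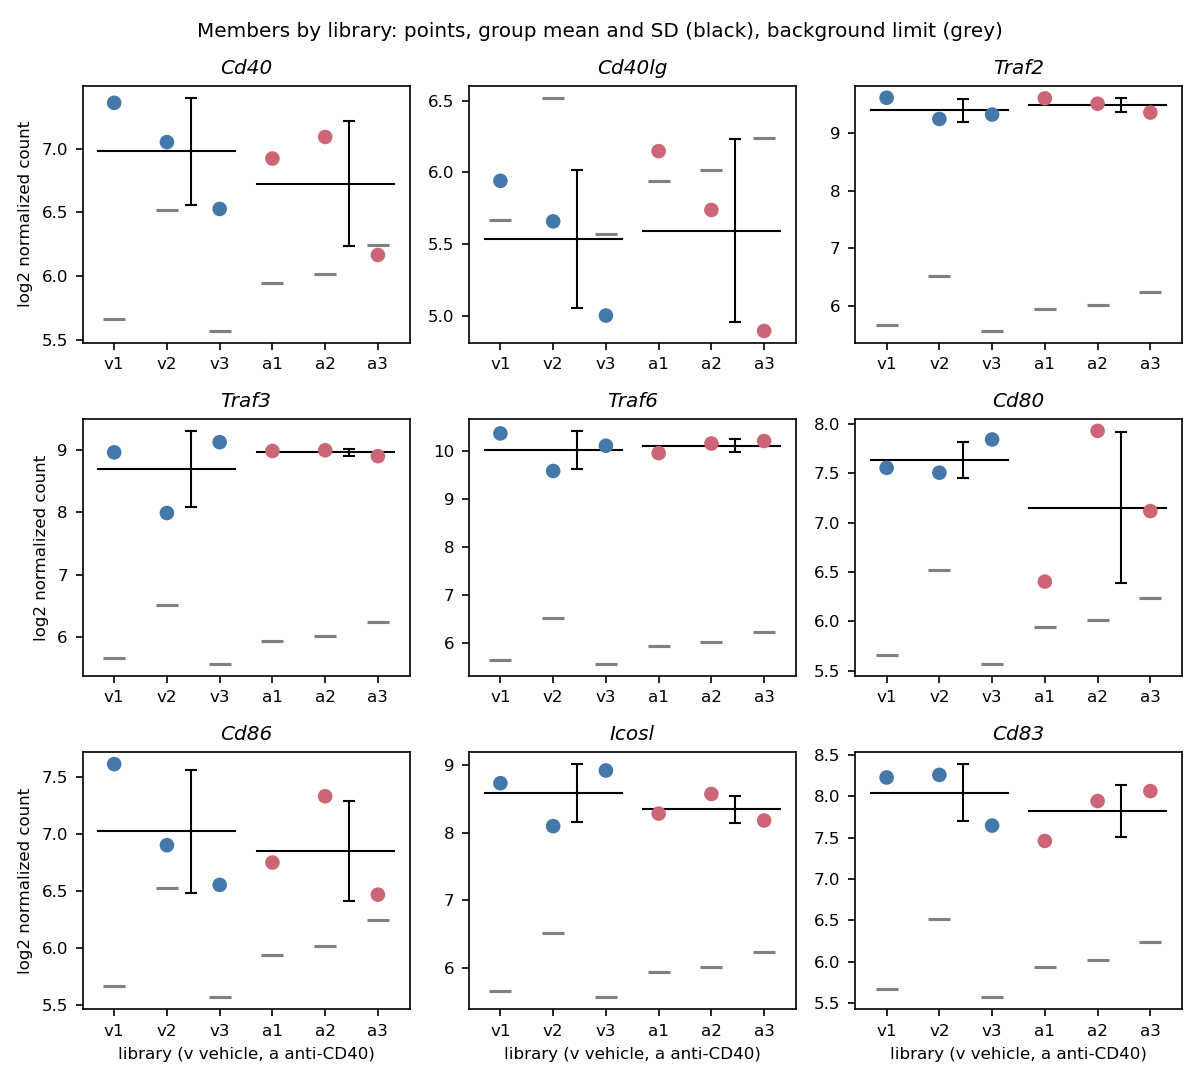
Log2 normalized count (y axis, a separate range for each gene) of the 9 members in the 6 libraries (x axis, v vehicle in blue, a anti-CD40 in red). Black lines are group means with SD, 3 libraries each, and grey marks are each library's background limit, which Cd40lg exceeded in 2 libraries and Cd40 in 5.

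The 3 adaptor genes were well above background in every library and shared a low value in vehicle 2. Traf2 varied least of the members. Its values were 9.61, 9.24 and 9.32 in vehicle and 9.60, 9.51 and 9.35 in anti-CD40 libraries, a range of 0.37 over all 6, and 10% of all genes had a smaller SD within groups. The difference of 0.096 (SE 0.22) had a limma adjusted p of 0.974.

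Traf3, the restraining adaptor, was 8.96, 7.99 and 9.12 in vehicle and 8.98, 8.99 and 8.90 in anti-CD40 libraries. The 3 anti-CD40 libraries lay within 0.095 of each other, and vehicle 2 stood alone below them and the other 2 vehicle libraries, at −0.84 from the gene's mean. Group means were 8.69 ± 0.61 and 8.96 ± 0.05 (SD, n = 3 each). The difference of 0.27 (SE 0.33, limma adjusted p = 0.974) became −0.084 without vehicle 2.

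Traf6, the adaptor that also serves Toll-like and interleukin-1 receptors, shared only its lowest library, vehicle 2, with Traf3. It was 10.35, 9.58 and 10.10 in vehicle and 9.95, 10.15 and 10.20 in anti-CD40 libraries. The difference of 0.086 (SE 0.26, limma adjusted p = 0.974) was −0.13 without vehicle 2 and −0.017 after quantile normalization. Neither the sign for Traf3 nor that for Traf6 was therefore kept once that 1 library was set aside.

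Of the B7 ligand genes, Cd80 showed the largest difference of any member, and most of its spread lay inside the treated group. It was 7.56, 7.51 and 7.84 in vehicle, a range of 0.34, and 6.40, 7.93 and 7.12 in anti-CD40 libraries, a range of 1.53. Anti-CD40 2 was the highest of all 6 libraries and anti-CD40 1 the lowest. On counts, these were 100, 54 and 131 in vehicle and 35, 98 and 48 in anti-CD40 libraries. Group means were 7.63 ± 0.18 and 7.15 ± 0.76 (SD, n = 3 each). The difference of −0.48 (SE 0.39, limma adjusted p = 0.974) was −0.11 without anti-CD40 1 and −0.87 without anti-CD40 2.

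Cd86, the other ligand of CD28 and CTLA4, had an r of 0.36 with Cd80, which was 0.63 without vehicle 3. It was 7.61, 6.90 and 6.55 in vehicle and 6.75, 7.33 and 6.47 in anti-CD40 libraries, so that vehicle 1 was highest and anti-CD40 3 lowest, as for Cd40. The difference of −0.17 (SE 0.35, limma adjusted p = 0.974) was 0.12 without vehicle 1 and 0.018 without anti-CD40 3. Anti-CD40 2 was the highest library for Cd80 and the second highest for Cd86, whereas vehicle 3 was the second highest for Cd80 and the second lowest for Cd86.

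Icosl, the ligand gene of the T cell receptor ICOS, was 8.73, 8.10 and 8.92 in vehicle and 8.28, 8.57 and 8.18 in anti-CD40 libraries. Vehicle 2 was the lowest library and the other 2 vehicle libraries the highest, with the treated libraries between them. Group means were 8.58 ± 0.43 and 8.34 ± 0.20 (SD, n = 3 each). The difference of −0.24 (SE 0.28, limma adjusted p = 0.974) was −0.48 without vehicle 2 and −0.069 without vehicle 3.

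Cd83, which stabilises surface CD86 and MHC class II on mature dendritic cells, was 8.23, 8.26 and 7.65 in vehicle and 7.46, 7.94 and 8.06 in anti-CD40 libraries. Vehicle 3 and anti-CD40 1 were the 2 low libraries. The difference of −0.22 (SE 0.28, limma adjusted p = 0.974) kept its sign with each library left out, between −0.42 without vehicle 3 and −0.041 without anti-CD40 1.

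**Figure D3:**
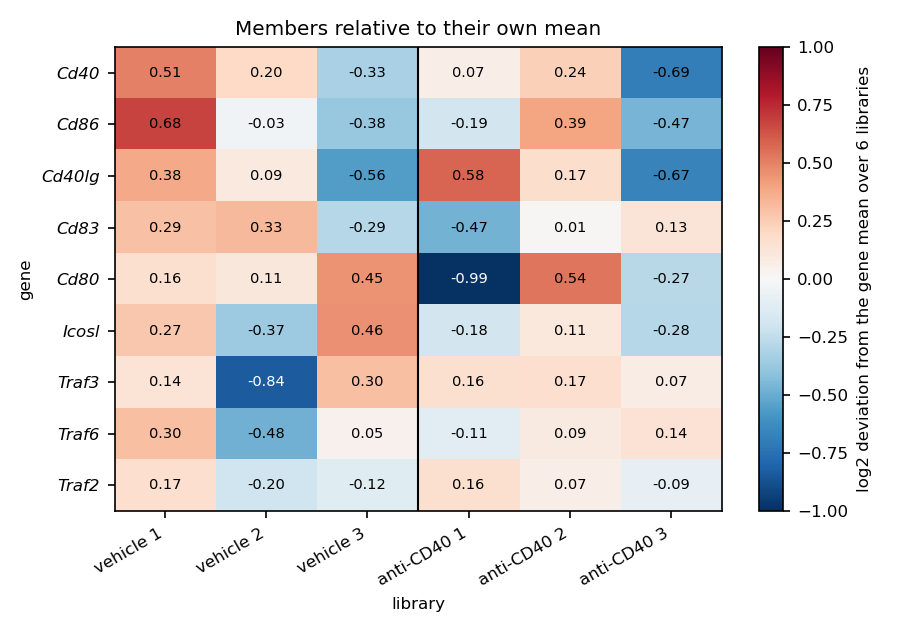
Deviation of each gene from its own mean over the 6 libraries (colour and printed value, log2) for the 9 genes (rows) and the libraries (columns, vehicle left of the line, anti-CD40 right). Cd40 and Cd86 are low together in vehicle 3 and anti-CD40 3, and Icosl, Traf3, Traf6 and Traf2 are low in vehicle 2. Cd40 did not exceed background in anti-CD40 3, nor Cd40lg in vehicle 2, vehicle 3, anti-CD40 2 and anti-CD40 3.

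The members fell into patterns that ran across the groups. Over the 36 pairs, 3 had a Pearson correlation above 0.8 across the 6 libraries, given here as a description since the libraries share one normalization and are few. Cd40 and Cd86 had an r of 0.89, between 0.84 and 0.92 with 1 library left out, and an r of 0.88 on deviations from the group means. Both were highest in vehicle 1, followed by anti-CD40 2, vehicle 2, anti-CD40 1, vehicle 3 and anti-CD40 3, the same order in each. Cd40 and Cd40lg had an r of 0.85, but Cd40lg was near background. Cd40 and Cd80 had an r of 0.17.

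The other pair above 0.8 was Traf3 with Traf6, with an r of 0.83 that was −0.32 without vehicle 2, so that relation rested on 1 library. Traf3 and Icosl had an r of 0.66, which was 0.79 without vehicle 2 and 0.61 without vehicle 3. Vehicle 2 was the lowest library for 4 of 9 members (Traf2, Traf3, Traf6 and Icosl), against 10.1% of all genes. Anti-CD40 3 was the lowest for 3 members (Cd40, Cd86 and Cd40lg), against 13.9% of all genes, and neither Cd40 nor Cd40lg exceeded background there. Anti-CD40 1 was the lowest for Cd80 and Cd83, against 20.4%. By contrast, vehicle 3 was the lowest for 0 members, against 41.6% of all genes, and the highest for 2 (Traf3 and Icosl), against 3.9%. The median over all genes was 7.68 in vehicle 3, beside 7.90 to 8.19 in the other libraries. Vehicle 1 was the highest library for 4 of 9 members (Cd40, Cd86, Traf2 and Traf6), against 22.3% of all genes. Vehicle 2 also had the largest scaling factor, 3.28 beside 1.72 to 2.80 in the other 5 libraries, and the highest B cell marker mean, 6.91 beside 5.08 to 6.24. Their part in the low adaptor values was not tested. The mean of the 20 housekeeping genes was 11.11 in vehicle 2, the highest of the 6 libraries, and 11.01 in anti-CD40 3, the lowest.

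**Figure D4:**
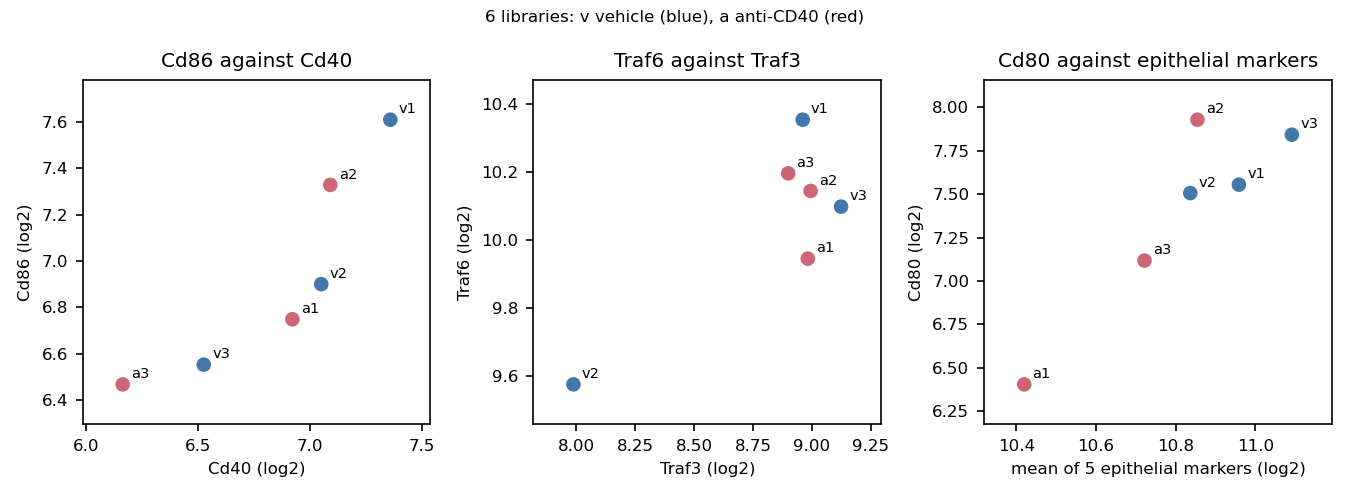
Log2 normalized counts of the 6 libraries (points, v vehicle in blue, a anti-CD40 in red) for Cd86 against Cd40, Traf6 against Traf3, and Cd80 against the mean of 5 squamous epithelial markers. Cd40 and Cd86 give the same order of libraries in these values, though their counts do not settle its middle. The adaptor pair is drawn out by vehicle 2 alone, and Cd80 and the epithelial mean are both lowest in anti-CD40 1.

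Vehicle 2 was the lowest library for Traf2, Traf3, Traf6 and Icosl, though only slightly for Traf2 (9.24 beside 9.32) and Icosl (8.10 beside 8.18). Whether these genes share regulation was not tested. Their promoter sequences are shown. They come from RefSeq on build GRCm38.p6, which held a window for 5 of the 9 members, and both strands of the 250 bases ahead of each annotated start were searched for the κB consensus, the site class bound by NF-κB. Capitals mark a match.
Icosl, chr10:78069118-78069367, plus strand: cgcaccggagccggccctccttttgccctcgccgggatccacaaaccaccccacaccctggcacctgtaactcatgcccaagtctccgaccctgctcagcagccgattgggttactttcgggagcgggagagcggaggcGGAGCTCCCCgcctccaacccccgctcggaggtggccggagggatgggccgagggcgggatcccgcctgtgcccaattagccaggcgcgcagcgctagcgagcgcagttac
Traf2, chr2:25546941-25547190, minus strand: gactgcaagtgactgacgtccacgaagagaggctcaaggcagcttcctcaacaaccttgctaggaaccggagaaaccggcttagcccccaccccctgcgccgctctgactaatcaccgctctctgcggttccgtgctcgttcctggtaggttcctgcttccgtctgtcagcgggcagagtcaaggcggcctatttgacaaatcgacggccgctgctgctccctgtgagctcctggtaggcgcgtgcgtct
Traf3, chr12:111166340-111166369, plus strand: cgcgcgcccaggcggcccgcGGGGATTTCC
Traf6, chr2:101678170-101678419, plus strand: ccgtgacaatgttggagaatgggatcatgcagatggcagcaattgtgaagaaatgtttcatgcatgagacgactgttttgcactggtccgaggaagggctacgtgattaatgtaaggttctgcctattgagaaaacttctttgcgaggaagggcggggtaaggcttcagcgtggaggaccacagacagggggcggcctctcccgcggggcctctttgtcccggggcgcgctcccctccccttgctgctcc
The match in Icosl reads on the minus strand and lies at −111 to −102 from the start. That in Traf3 lies at −10 to −1 from a start that lies 49 bases downstream of the gene's first annotated base, so this match is inside the gene. Only the 30 bases ahead of that start are shown. The Cd80 window, which is not shown, ends at a start 1503 bases downstream of that gene's first annotated base, so all of it lies inside the gene. A match was present in 2 of the 5 windows and in 7.25% of all 32851 windows of this length. Those 2 windows were the richest of the 5 in G and C bases, 85.2% in Traf3 and 68.8% in Icosl beside 52.8% to 60.8%. The share over all windows was not matched for base content, so it shows no excess or lack of matches among the members. The letters GGGCGG, the core of a GC box, were found on either strand 4 times in the Traf3 window, 2 times in that of Traf6, 1 time in that of Icosl and 0 times in those of Traf2 and Cd80. That is 3 of 5 windows, beside 32.7% of all windows, again not matched for base content. A match is a run of letters and not evidence of binding, and its absence from Traf6, Traf2 and Cd80 says only that these letters are not in those windows.

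Marker levels were set beside the members. The mean of 9 macrophage and monocyte markers was 8.71, 8.61 and 7.84 in vehicle and 8.57, 8.75 and 8.58 in anti-CD40 libraries, and 8 of these markers were above background in every library. Their summed level ran from 11.31 to 12.08 log2 in vehicle and from 11.96 to 12.14 in anti-CD40. The r with this mean was 0.49 for Cd40 and 0.58 for Cd86, and anti-CD40 3, lowest for both, was not low in it. With 1 library left out it ran from 0.41 to 0.90 for Cd40, the latter without anti-CD40 3. For Cd86 it ran from 0.51 to 0.89, the latter without vehicle 3. Dendritic cell markers were sparse: 1 of 6 measured, the Langerhans cell gene Cd207, was above background in all libraries, and Xcr1 and Lamp3 in none. The dendritic cell mean was 6.56, 6.63 and 6.12 in vehicle and 6.01, 6.33 and 6.03 in anti-CD40 libraries, and its r was 0.78 with Cd83, 0.73 with Cd40 and 0.70 with Cd86. With 1 library left out, r ran from 0.70 to 0.996 for Cd83, 0.62 to 0.89 for Cd40 and 0.56 to 0.94 for Cd86. The summed level of the dendritic cell markers ran from 8.87 to 9.47 log2 in vehicle and from 8.82 to 9.14 in anti-CD40. The r with the mean of the T cell markers was 0.81 for Cd83, 0.76 for Cd86 and 0.62 for Cd40. A high r was thus not particular to dendritic cell markers. Of 8 B cell markers, 0 were above background in all 6 libraries, and Cd79a, Cr2 and Cd22 in none. Their summed level ran from 7.97 to 10.13 log2 in vehicle and from 8.04 to 9.27 in anti-CD40. The part of any of these cell types in the members' levels was not tested.

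Cd80 was also set beside the epithelial markers. The mean of Epcam, Cdh1, Itga6, Itgb4 and Muc1 was 10.96, 10.84 and 11.09 in vehicle and 10.42, 10.86 and 10.72 in anti-CD40 libraries, and 4 of the 5 were above background in every library. Their summed level ran from 13.90 to 14.53 log2 in vehicle and from 13.51 to 14.13 in anti-CD40. The r with Cd80 was 0.91, and 0.68 without anti-CD40 1, the library lowest in both. Itga6 and Itgb4 had the same 2 highest libraries as Cd80, but in the reverse order. For Itga6, an integrin of the basal keratinocyte, the values were 12.27, 12.53 and 13.38 in vehicle and 11.66, 12.88 and 11.89 in anti-CD40 libraries. Vehicle 3 and anti-CD40 2 were the 2 highest libraries for both Itga6 and Cd80, which Epcam, Cdh1 and Muc1 did not share: Epcam was 11.34 in anti-CD40 1, the lowest library for Cd80, and Muc1 was 6.02 in vehicle 3. The r of Cd80 was 0.70 with the T cell mean and −0.83 with the endothelial mean. With the dendritic cell mean it was 0.50, and 0.17 without anti-CD40 1. With the macrophage mean it was −0.22, but 0.81 without vehicle 3, so that value rested on 1 library. The part of epithelial content in the level of Cd80 was not tested.

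The signalling genes downstream of the adaptors showed no difference that passed the test. Of 15 measured genes of CD40 and TRAF signalling, all above background in every library, 9 were higher and 6 lower in the mean, 0 passed an adjusted p of 0.05 with limma and 0 had an unadjusted p under 0.05. Their median difference was 0.035, beside 0.038 over all genes. The members of lowest p were Tnfaip3, Rel and Map3k1. Tnfaip3, which encodes the NF-κB inhibitor A20, was 8.50, 8.86 and 8.36 in vehicle and 7.92, 8.49 and 7.43 in anti-CD40 libraries, and the groups overlapped. Map3k1, a kinase between TRAF2 and JNK, was 8.93, 8.83 and 8.92 in vehicle and 8.47, 8.82 and 8.57 in anti-CD40 libraries, with groups that did not overlap but nearly met at vehicle 2 and anti-CD40 2. Rel, an NF-κB subunit gene of lymphocytes and myeloid cells, was 9.27, 8.83 and 8.67 in vehicle and 8.38, 8.72 and 8.0 in anti-CD40 libraries. Their differences were −0.63, −0.27 and −0.55, with a limma adjusted p of 0.974 for each. The subunit genes of the non-canonical route differed little between groups. Nfkb2 was 10.01, 10.15 and 9.49 in vehicle and 10.01, 9.96 and 9.94 in anti-CD40 libraries, and Relb was 9.38, 9.23 and 8.91 beside 8.92, 9.45 and 9.26, with differences of 0.086 (SE 0.25) and 0.035 (SE 0.25) and limma adjusted p of 0.974 and 0.988. Traf1, Traf5 and Map3k14, which encodes NIK, were not among the measured genes under these symbols.

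Of 21 measured genes that CD40 ligation is known to induce in antigen-presenting cells, 15 were lower and 6 higher in the mean, against 45.5% lower and 54.5% higher over all genes. With limma 0 passed the adjusted threshold, 2 had an unadjusted p under 0.05, against 3.25% of all genes, and the median difference was −0.18, beside 0.038 over all genes. Several marker lists also lay to one side in the mean. Dendritic cell markers were lower for 6 of 6 genes, T cell markers for 10 of 10 and epithelial markers for 4 of 5. Only 1 of those 6 and 5 of those 10 were above background in every library, and Ccr7 is both a dendritic cell marker and in this list. Macrophage and monocyte markers were higher for 7 of 9, neutrophil and immature granulocyte markers for 6 of 7, fibroblast markers for 6 of 6 and endothelial markers for 5 of 6. The part of these marker lists in the genes induced by CD40 ligation was not tested. The groups did not overlap for 3 of the 21 genes, all lower, against 10.3% of all genes in either direction and 3.51% in this one. These were Cd274, Ccl22 and Ccl4, and they were also the 3 of lowest p. Cd274, which encodes PD-L1, was 9.58, 8.57 and 8.51 in vehicle and 7.30, 8.08 and 8.19 in anti-CD40 libraries. Ccl22, a chemokine gene of mature dendritic cells, was 8.33, 8.04 and 8.25 in vehicle and 7.48, 7.99 and 7.38 in anti-CD40 libraries. Ccl4 was above background in 2 libraries. The interleukin 12 subunit genes Il12a and Il12b, whose products are classical readouts of CD40 ligation, were above background in 2 and 1 of the 6 libraries, so this list could be read for 10 of its 21 genes in every library.

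Among the receptors and relatives of the B7 ligands, 5 of 7 measured genes had a lower mean and 2 a higher one, with 0 passing the adjusted threshold in limma and 1, Cd274, at an unadjusted p under 0.05, against 3.25% of all genes. Their median difference was −0.29, beside 0.038 over all genes. Cd28, the activating receptor for CD80 and CD86, was 6.06, 5.92 and 5.40 in vehicle and 6.15, 6.57 and 6.11 in anti-CD40 libraries. The groups did not overlap, which held for 10.3% of all genes in either direction and 6.75% in this one. Cd28 was, however, above background in only 3 of 6 libraries. Its difference of 0.48 (SE 0.27) had a limma adjusted p of 0.974. The inhibitory receptor gene Ctla4 was 8.03, 7.97 and 7.85 in vehicle and 7.73, 8.45 and 7.73 in anti-CD40 libraries, and Icos, the receptor gene for ICOS ligand, was 7.36, 6.54 and 6.38 beside 6.44, 7.74 and 5.92. Both were highest in anti-CD40 2, the library in which Cd80 was highest too. Pdcd1lg2, which encodes PD-L2, was 5.85, 6.06 and 5.76 beside 4.89, 5.98 and 5.25, above background in 2 libraries.

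**Figure D5:**
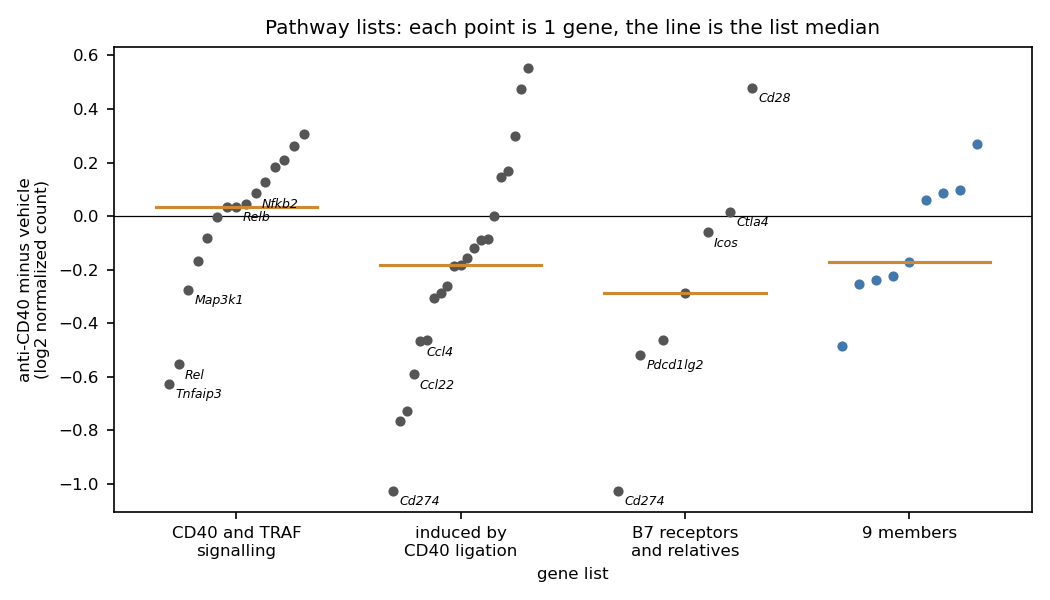
Difference in log2 normalized count (y axis, anti-CD40 minus vehicle) for each gene of 3 pathway lists and for the 9 members (x axis), with points in ascending order within a list and the list median as an orange line. Genes described in the text are labelled in the lists; the medians are 0.035, −0.18 and −0.29 for the lists and −0.17 for the members, and Cd274 is the lowest point of both lists that hold it.

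The genes most like each member across the 6 libraries were taken from those above background in all of them, 522 or 523 candidates per member. With 6 points and so many candidates a high r is easily reached, and between 0 and 7 candidates per member had an r of at least 0.9. Cd40 was most like Tyk2 (r = 0.93), a kinase gene of interferon and interleukin 12 receptors, Itgal (0.91), which encodes a leukocyte integrin, and S100a8 (0.89), a calprotectin gene of myeloid cells. Cd86 was also most like Tyk2 (0.96), followed by Il1r2 and Arg1 (both 0.94). Cd80 was most like Nod2 (0.94), a bacterial sensor gene, Cxcl1 (0.93), a neutrophil chemokine gene, and Hif1a (0.93), a hypoxia factor gene. Hif1a was 13.42, 13.47 and 14.0 in vehicle and 12.49, 14.35 and 12.67 in anti-CD40 libraries, in the same high and low libraries as Cd80. Cd83 was most like Cd84 (0.95), H2-DMb1 (0.93) and Mx2 (0.93). Icosl was most like Ewsr1 (0.90), Irak4 (0.90) and Il22ra1 (0.89), and Traf2 like Lbp (0.90), Ythdf2 (0.89) and Lamp2 (0.88). Traf3 was most like Ly96 (0.94), Reps1 (0.94) and Smn1 (0.91), and Traf6 like Reps1 (0.94), H2-D1 (0.94) and Jak2 (0.91). Reps1 was 9.62 in vehicle 2 and between 9.83 and 9.93 in the other 5 libraries, low in the same library as both adaptors.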

How the data were processed

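The deposited table holds log2 normalized counts from the authors in 784 rows: 770 genes, 6 positive and 8 negative controls. RNA was extracted from fixed tumours, per the labels' protocols. The platform, counting software and normalization rule were not given in the sources used here. Each value is the log2 of a library factor (1.72 to 3.28) times a whole count plus a common offset of 4.55: all 4704 values gave whole counts to within 0.05. The offset understates differences of genes with few counts, and low counts are multiplied by unequal factors. No library was a duplicate: within groups, counts of pairs differed by a chi-square of 64.2 to 121 per degree of freedom. Totals and background limits are in the report.

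Groups were compared with limma 3.58.1 in R 4.3.3 (lmFit and eBayes, 4 residual and 3.37 prior degrees of freedom) on all 770 genes, as two-sided tests adjusted by Benjamini-Hochberg. The script was tested on simulated data. Exact permutation tests and correlations used Python 3.11.15 with scipy 1.17.1. Alternatives were housekeeping centring, quantile normalization, offsets of 1 and 20, a filter on low genes, trend with robust variance, limma-voom, a replicate block, other background limits and leaving out each library.

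The members and gene lists were chosen with earlier results of these data known. Named genes are the members, the 3 of lowest p in each pathway list with Nfkb2, Relb, Cd28, Ctla4 and Icos, and the 3 genes most correlated with each member above background in at least 3 libraries. Il12a, Il12b, marker genes and genes at or below background were named after their values were seen.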

Additional observations from a re-analysis of the deposited data

How the results depend on the processing

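Limma called 0 genes under every alternative run, and no member passed an adjusted p of 0.05 under any (lowest 0.664). Of 125 member values, 116 kept their sign. These include the low-gene filter, trend with robust variance and the replicate block, which leave each difference as it was, so their signs could not change. After quantile normalization the difference of Traf6 was −0.017. With 1 library left out, differences ranged from −0.48 to 0.028 for Cd40, −0.22 to 0.41 for Cd40lg, −0.41 to 0.12 for Cd86, −0.084 to 0.48 for Traf3 and −0.13 to 0.26 for Traf6. The cause was not tested. Genes with an unadjusted p under 0.05 numbered 25 and, after quantile normalization, 52. With 1 library left out they numbered 13 to 49. Quantile normalization moved the median difference of all genes from 0.038 to −0.0072. The labels number the samples 1 to 3 in each group and do not say what the numbers mean. Deviations of same-numbered samples from their group means correlated at −0.43, 0.069 and 0.28, and those of other pairs at −0.56 to 0.48. With means of only 3 samples, these values cannot show whether same-numbered samples are paired. Under the replicate block 0 genes were called and 32 had an unadjusted p under 0.05, and no member's call changed. Members above background in all 6 libraries numbered 7, and 6 with the limit at 3 SD, which Cd86 then exceeded in 5. Low counts limit what can be read from Cd40lg, Cd40 and Cd86.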
